A study of Mus musculus with 4 samples.

Results

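DNA methylation of Tet1 knockout (KO) and wild-type (WT) mouse embryonic brain was compared across both maternal diets at once, over 4 whole-genome bisulfite sequencing libraries, which are all the libraries of the series. The 2 KO embryos were homozygous for the Tet1 tm1Koh allele and the 2 WT embryos carried no such allele, both on a 129S6 congenic background. In each genotype, 1 embryo came from a dam fed 30 ppm folic acid (FA) and 1 from a dam fed 3 ppm FA, so the replicates of a genotype also differed in diet. By the study's methods, both custom diets also held the antibiotic succinyl sulfathiazole. Each library was the brain of 1 embryo at E11.5. For sequencing in general the study's methods describe taking KO embryos with WT littermates of the same sex, whereas the titles of these 4 libraries give each embryo a different number, so litter was not used as a pairing. The allele was made on a C57BL/6 background by inserting a cassette at the first coding ATG and was then backcrossed, so DNA linked to the allele on chromosome 10 can differ from 129S6 in KO embryos. The main comparison set both KO libraries against both WT libraries. For each promoter, the 1 kb on each side of a gene's outermost annotated start site, the smallest of the 4 possible KO minus WT differences was kept as the consistent effect, and was set to 0 where the genotypes overlapped. The same measure was taken for the cross split, in which KO 30 ppm and WT 3 ppm stood against WT 30 ppm and KO 3 ppm, a grouping that mixes genotypes and diets equally and is also the contrast of a genotype by diet interaction.

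TET1 is a dioxygenase that oxidises 5-methylcytosine at CpG dinucleotides, a step toward removal of the methyl group. It binds CpG-rich DNA through its CXXC domain. Most CpGs of the mouse genome are methylated, while CpG islands at the start sites of genes are kept unmethylated, and the slopes between an island and its methylated surroundings are called shores. Folate carries the single-carbon units from which the methyl donor of DNA methyltransferases is made. Bisulfite sequencing reads 5-methylcytosine and 5-hydroxymethylcytosine alike, so "methylation level" here is the share of reads with either mark.

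The labels were checked at the targeted position. In Tet1, on chromosome 10, the start codon lies at chr10:62880012-62880014 (GRCm38). Among 1210 CpGs listed in any library within the gene, 3 had at least 5 reads in both WT libraries and none in either KO library. They lay within 16 bases of the start codon, with 10 to 12 reads each in the WT libraries. All 4 libraries matched their genotype label at this position. The mean depth was 13.2 reads per autosomal CpG in KO 30 ppm, 21.2 in KO 3 ppm, 14.3 in WT 30 ppm and 16.2 in WT 3 ppm. Of 15871451 autosomal CpGs listed in all 4 libraries, 14907672 had at least 5 reads in each and were used. Expression was not measured in these files, so the labelled tissue could not be checked against brain markers by their RNA.

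The 200-base windows that carried the strongest gain in 5 promoters are printed first, since they show what a gained region looks like base by base. They are the 3 promoters with the largest gain under the naming rule (Rem1, Fam163a and Egfem1), the potassium channel gene Kcnj4 and the homeobox gene Hoxd1, the last 2 chosen after their values were seen. Each is from the GRCm38.p6 reference, 5′ to 3′ on the strand of the gene. Capitals mark the CpGs at which both KO libraries exceeded both WT libraries by at least 10 points, and the CpGs in lower case were smaller in effect or too thinly covered.
Rem1: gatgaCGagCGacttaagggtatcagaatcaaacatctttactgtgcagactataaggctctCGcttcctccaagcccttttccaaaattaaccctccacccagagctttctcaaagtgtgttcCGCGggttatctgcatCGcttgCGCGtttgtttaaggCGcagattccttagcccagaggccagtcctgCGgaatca
Fam163a: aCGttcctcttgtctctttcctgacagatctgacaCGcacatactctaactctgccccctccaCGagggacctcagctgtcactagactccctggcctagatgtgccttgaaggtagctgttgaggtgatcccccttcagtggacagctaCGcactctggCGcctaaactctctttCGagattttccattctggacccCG
Egfem1: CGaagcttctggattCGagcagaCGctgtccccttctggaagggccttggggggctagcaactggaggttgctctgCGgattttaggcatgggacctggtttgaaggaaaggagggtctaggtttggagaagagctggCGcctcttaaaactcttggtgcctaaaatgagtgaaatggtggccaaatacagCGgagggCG
Kcnj4: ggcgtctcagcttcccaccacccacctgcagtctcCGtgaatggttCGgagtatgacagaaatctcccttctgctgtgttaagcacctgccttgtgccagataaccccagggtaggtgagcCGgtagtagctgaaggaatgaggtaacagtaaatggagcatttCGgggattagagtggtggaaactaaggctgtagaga
Hoxd1: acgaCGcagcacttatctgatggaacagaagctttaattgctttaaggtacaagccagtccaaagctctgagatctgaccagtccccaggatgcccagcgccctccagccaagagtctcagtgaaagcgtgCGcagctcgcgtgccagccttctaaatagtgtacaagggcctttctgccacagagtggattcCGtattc
The Rem1 window (chr2:152626477-152626676, plus strand) lay 474 to 275 bases upstream of the start site, outside any annotated gene. The Fam163a window (chr1:156205359-156205558, minus strand) and the Egfem1 window (chr3:29081761-29081960, plus strand) were also intergenic. The Kcnj4 window (chr15:79504651-79504850, minus strand) lay in an intron of Kcnj4, 391 to 590 bases past its start site. The Hoxd1 window (chr2:74762060-74762259, plus strand) lay in an intron of Haglr, a long non-coding RNA gene antisense to Hoxd1.

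All 10 CpGs of the Rem1 window gained, as did all 7 of the Fam163a window and all 7 of the Egfem1 window. Over the Rem1 window 61.9% of reads were methylated in KO 30 ppm and 65.1% in KO 3 ppm, against 22.6% in WT 30 ppm and 18.8% in WT 3 ppm. In the Egfem1 window the levels were 56.4% and 59.8% in the KO libraries at 30 and 3 ppm, against 8.51% and 10.3% in WT. The KO libraries thus lay well above the WT libraries at each diet, and the diets of a genotype lay close together. In the Hoxd1 window 3 of 8 CpGs gained, and the levels were 31.7% and 26.1% in KO against 5.88% and 7.89% in WT. These windows were picked for their gain, so the values describe them and test nothing.

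**Figure D1:**
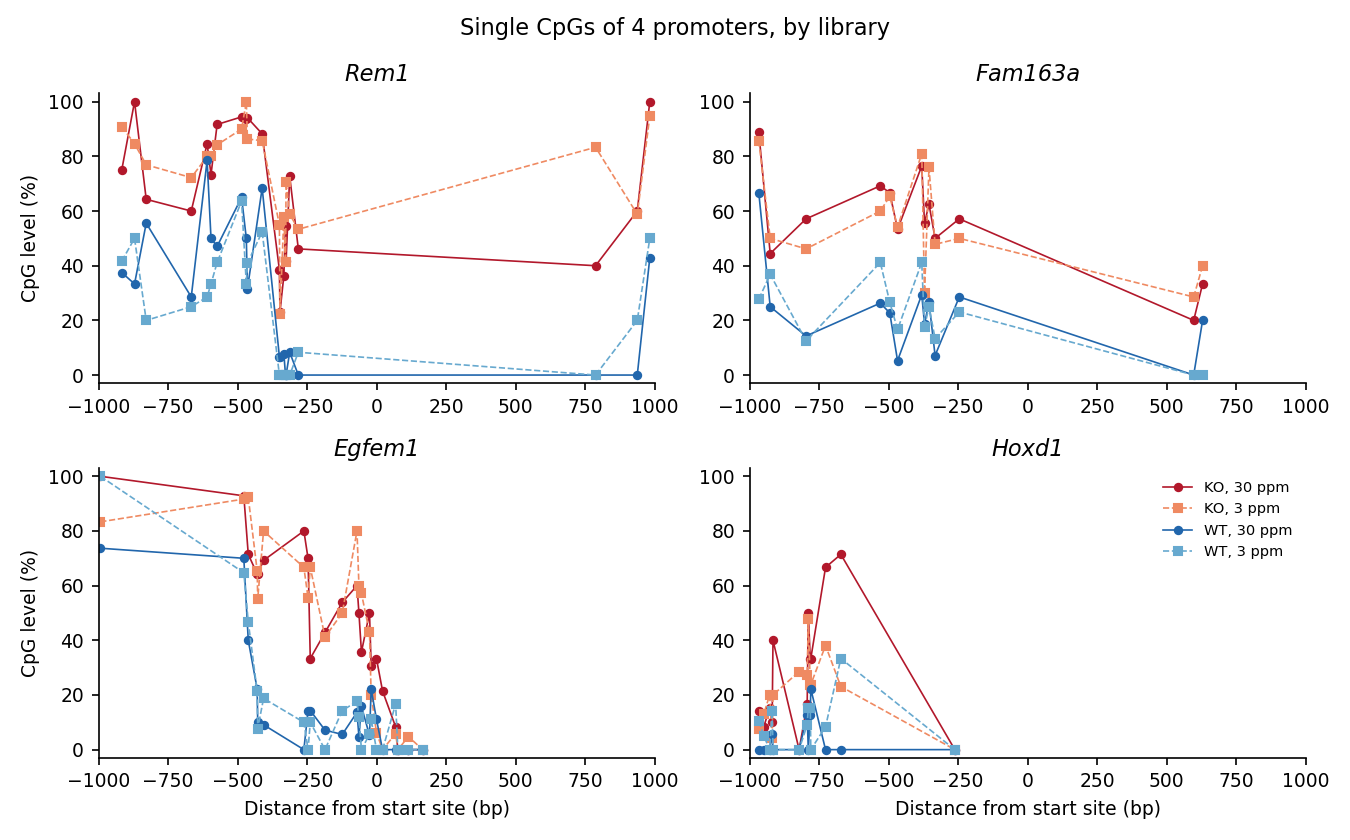
Methylation level (%) of each CpG with at least 5 reads in all 4 libraries, against its distance in bases from the start site on the strand of the gene, at Rem1, Fam163a, Egfem1 and Hoxd1. Red and orange are KO at 30 and 3 ppm FA and dark and light blue are WT at 30 and 3 ppm; at Rem1 all 21 measured CpGs were higher in both KO libraries than in both WT libraries, and at Hoxd1 8 of 13 were.

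Over the autosomes, promoter methylation was higher in KO brain, and losses were rare. Of 29096 promoters with at least 3 such CpGs (30233 were annotated), 2168 gained, that is, were at least 10 points higher in both KO libraries than in both WT libraries, 7.45% of those tested. Only 8 lost, at least 10 points lower in all pairs, 0.0275%. With each library centred on its median promoter difference there were 1236 gains and 35 losses, and with any 1 library left out, which leaves fewer pairs to satisfy, 3303 to 3602 gains and 63 to 101 losses. The cross split gave 16 promoters that were higher (0.055%) and 17 that were lower (0.0584%) by the same measure. At 20 points or more there were 312 gains, 1 loss and no cross-split promoter, and at 30 points 31 gains. The largest gain was 47.3 points and the largest cross-split effect 15.1 points. Without any minimum size, the genotypes did not overlap with KO higher at 14615 promoters (50.2%) and with KO lower at 2018 (6.94%), against 3713 (12.8%) and 2630 (9.04%) for the cross split in its higher and lower directions.

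**Figure D2:**
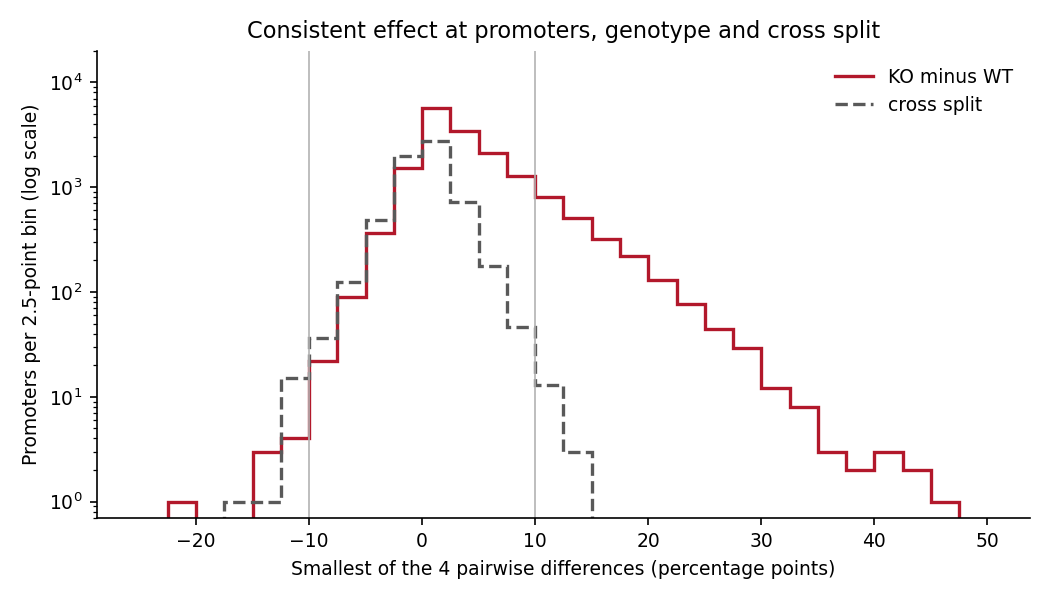
Number of promoters (log scale, bins of 2.5 points) by the smallest of the 4 pairwise differences, for KO minus WT (red) and for the cross split (dashed), leaving out promoters where the groups overlapped. The KO minus WT curve reaches 47.3 points on the right and -21.5 points on the left, and the cross split stays within 15.1 points in either direction; the grey lines mark 10 points.

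The typical promoter moved little. The median KO minus WT difference was 3.00 points, with 3.47 points at 30 ppm and 2.63 points at 3 ppm. Pairs of the same genotype had median differences of 0.399 points (KO 30 ppm minus KO 3 ppm) and -0.195 points (WT 30 ppm minus WT 3 ppm). Differences of 20 points or more with KO higher were found at 1033 promoters at 30 ppm and at 960 at 3 ppm, with 7 and 8 in the opposite direction. Between embryos of the same genotype such differences were found at 21 and 18 promoters in KO and at 28 and 39 in WT. Across the 29096 promoters the KO minus WT differences at 30 ppm and at 3 ppm, which share no library, had a Pearson's r of 0.527 and a Spearman's rho of 0.440. The 30 minus 3 ppm differences of KO and of WT had an r of -0.0171 and a rho of -0.0171. Promoters are not independent replicates and share base composition and starting level, so these correlations are descriptions.

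With 2 embryos against 2, an exact permutation test of a single promoter cannot go below p = 0.333. A limma fit across all promoters, with diet as a second factor, called 3561 promoters higher in KO (12.2%) and 48 lower (0.165%) at a Benjamini-Hochberg adjusted p under 0.05. For the cross split, fitted with genotype as the second factor so that the diet contrast set the spread, limma called 0. At an unadjusted p under 0.05 there were 977 higher and 653 lower. For diet limma called 0, with 680 and 633 at an unadjusted p under 0.05. With promoters of 500 bases or 2.5 kb on each side, limma called 34 and 39 for the cross split, and 1646 and 5687 for genotype. When each library was centred on its median promoter difference, limma called 943 higher and 140 lower in KO, so the share of calls that were higher went from 98.7% to 87.1%; the median promoter stood 0.34 higher in KO on the log2 ratio scale. Of the 2168 gains, 2029 were also called by limma, 93.6% of the gains and 57.0% of limma's higher calls. The gain rule and limma read the same libraries, so this overlap is a description. Without KO 30 ppm limma called 1313 promoters higher and without KO 3 ppm 1786. Fisher's exact test within each diet, which compares 2 libraries and not the genotypes, called 1985 promoters higher by at least 10 points in both diets (6.82%) and 1 lower (0.00344%).

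The median level of the gained promoters was 52.2% in KO 30 ppm and 52.0% in KO 3 ppm, against 31.9% in WT 30 ppm and 32.2% in WT 3 ppm. Promoters with a mean over all libraries of 25 to 50% held a gain in 17.6% of cases and those of 50 to 75% in 15.4%. Above 75% the share was 0.824%, and below 10%, where a rule of 10 points leaves little room for a gain, it was 0.386%. limma, which tests on a log scale, called 12.6% of the 3369 promoters below 10% higher in KO, next to 12.2% of all promoters, 925 of the 4404 of 10 to 25%, 20.4% of those of 25 to 50%, 17.6% of those of 50 to 75% and 2.57% of those above 75%. By CpG density, gains made up 9.62% of 11802 promoters of high density (a 500-base window with an observed to expected CpG ratio of at least 0.75 and at least 55% G and C), 11.9% of 6097 of intermediate density and 2.73% of 11197 of low density (no window with a ratio of 0.48 or more). By limma the order of the first 2 classes was the other way, with 17.6% of high, 16.0% of intermediate and 4.54% of low density called higher, and the median differences were 4.54, 3.90 and 1.42 points. Protein-coding genes gained at 1734 of 19924 promoters (8.70%) and long non-coding RNA genes at 434 of 9172 (4.73%). By autosome the share ran from 5.34% to 9.43%. Neighbouring start sites can share CpGs, and the 2168 gains formed 2015 separate regions.

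The difference was largest beside the start site and not at it. At high-density promoters of protein-coding genes, the 250 bases after the start site were nearly unmethylated, with 5.47% and 5.52% in KO and 4.46% and 4.31% in WT at 30 and 3 ppm. KO exceeded WT there by 1.01 points at 30 ppm and 1.21 points at 3 ppm. From 750 to 1000 bases downstream the KO levels were 31.3% and 30.9% and the WT levels 23.3% and 23.8%, differences of 8.04 and 7.03 points. Upstream the differences were 6.67 and 5.76 points from 1000 to 750 bases before the start site and 6.49 and 5.91 points from 750 to 500 bases before it. Beyond 4 kb, where levels were near 80%, the difference was 2.76 to 2.99 points at 30 ppm and 1.49 to 2.00 points at 3 ppm. At intermediate density the flanks reached 8.14 and 7.53 points (500 to 750 bases downstream), and the lowest bin of WT 30 ppm, the 250 bases before the start site, still differed by 5.12 and 4.90 points. Low-density promoters had a single low maximum of 4.89 and 4.10 points in the 250 bases after the start site. In all 40 bins of each density class both KO libraries lay above both WT libraries.

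**Figure D3:**
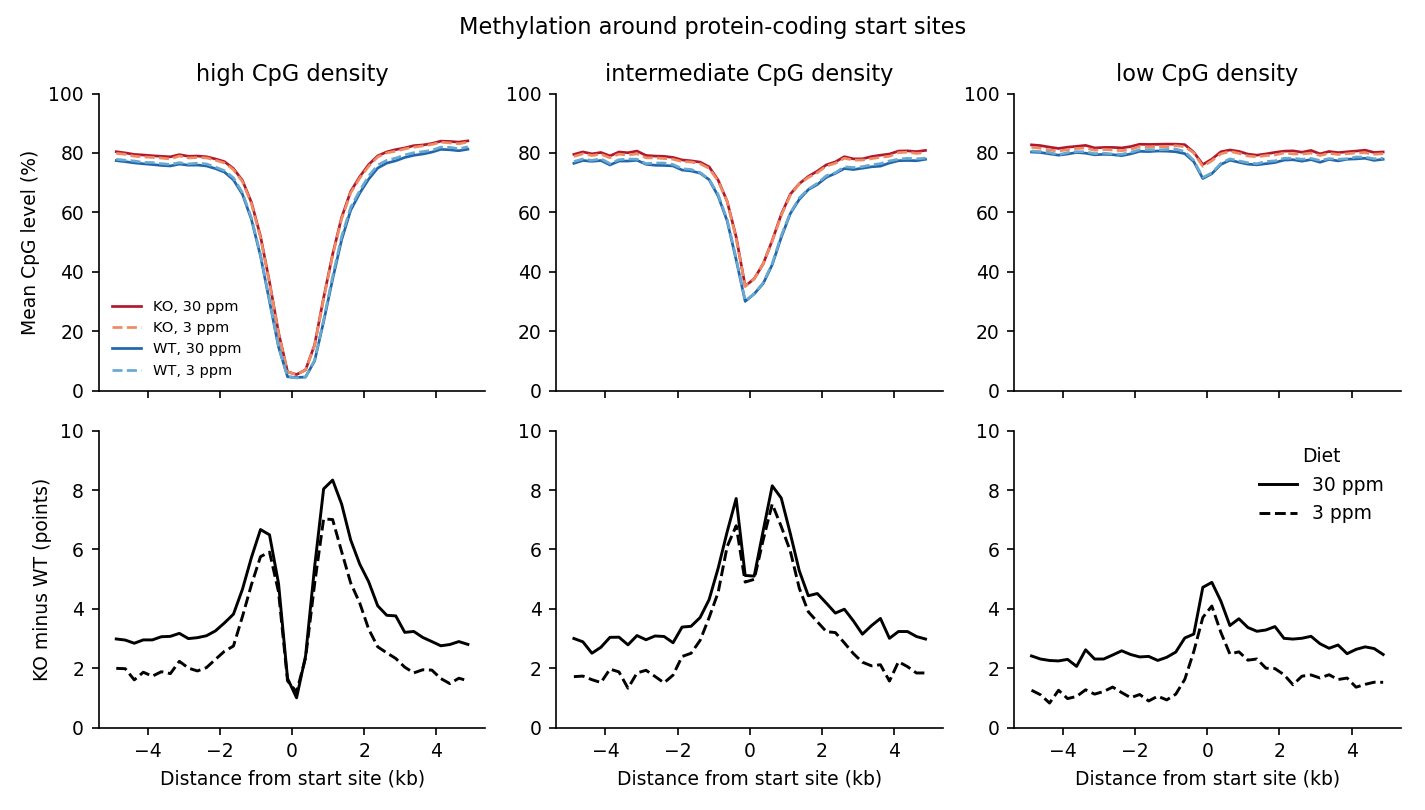
Mean CpG level (%, top) in 250-base bins within 5 kb of protein-coding start sites, by library and CpG density, and KO minus WT in points (bottom) at 30 ppm (solid) and 3 ppm (dashed). High-density promoters show a maximum on either side of the start site and a minimum of about 1 point at it (1.01 and 1.21 points), while low-density promoters show 1 maximum at the start site.

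Coverage set which CpGs were seen. In high-density promoters a median of 25% of the reference CpGs had at least 5 reads in all libraries, against 68.1% at intermediate and 84.6% at low density. Among gained promoters of high density the median was 17.5%, so a gain there describes the covered CpGs, and the others were not measured at this depth. At Rem1, for example, 21 of 91 CpGs were covered, at Egfem1 22 of 88 and at Siah3 22 of 33.

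The 15 promoters named for the largest gain belonged to genes of varied function. Rem1, a small GTPase that restrains voltage-gated calcium channels (chr2:152625951-152627951), stood at 69.6% and 72.9% in KO at 30 and 3 ppm and at 33.3% and 28.1% in WT. Its KO mean was 71.3% ± 2.29 and its WT mean 30.7% ± 3.72 (SD, n = 2), a log2 ratio change of 2.47 (SE 0.25, limma adjusted p = 9.22e-04). Fam163a (chr1:156204026-156206026) had 59.6% and 57.6% in KO and 21.8% and 24.2% in WT. Egfem1, which encodes a protein with EGF-like and EMI domains (chr3:29081023-29083023), had 50.0% and 51.6% in KO and 16.2% and 17.6% in WT. In each of these 3 promoters, picked for their gain, the 2 libraries of a genotype lay close together. The genotypes were at least 32.4 points apart.

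Siah3 (67.7% and 69.9% in KO, 37.1% and 36.5% in WT) and Ikzf4, an Ikaros family zinc finger gene whose CpGs are shared with Gm26876 (46.2% and 54.0% against 15.8% and 11.1%), were more than 30 points higher in KO. Capn1, a calcium-dependent protease, had 60.7% and 59.6% in KO and 26.7% and 29.8% in WT. Emp1, an epithelial membrane protein, had 80.7% and 70.9% in KO and 41.3% and 39.4% in WT. Galnt6, which starts O-linked glycosylation, and Chrdl2, a chordin-like antagonist of bone morphogenetic proteins, gained 29.4 and 29.0 points. Ecel1, a membrane metallopeptidase of neurons, was the promoter with the widest WT spread of the 15, at 36.7% and 21.8%, and stood at 64.8% and 65.8% in KO. Gm19684, Clec2l, Prr16, Sycp2l (a gene of the meiotic synaptonemal complex family) and H2-Q6 gained 27.4 to 28.8 points. H2-Q6 is a class I histocompatibility gene with near-identical copies, so its reads may come from more than 1 locus. All 15 were called by limma, with adjusted p from 9.22e-04 to 0.00212. They were picked for their gain in the same libraries, so these values describe them and test nothing.

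**Figure D4:**
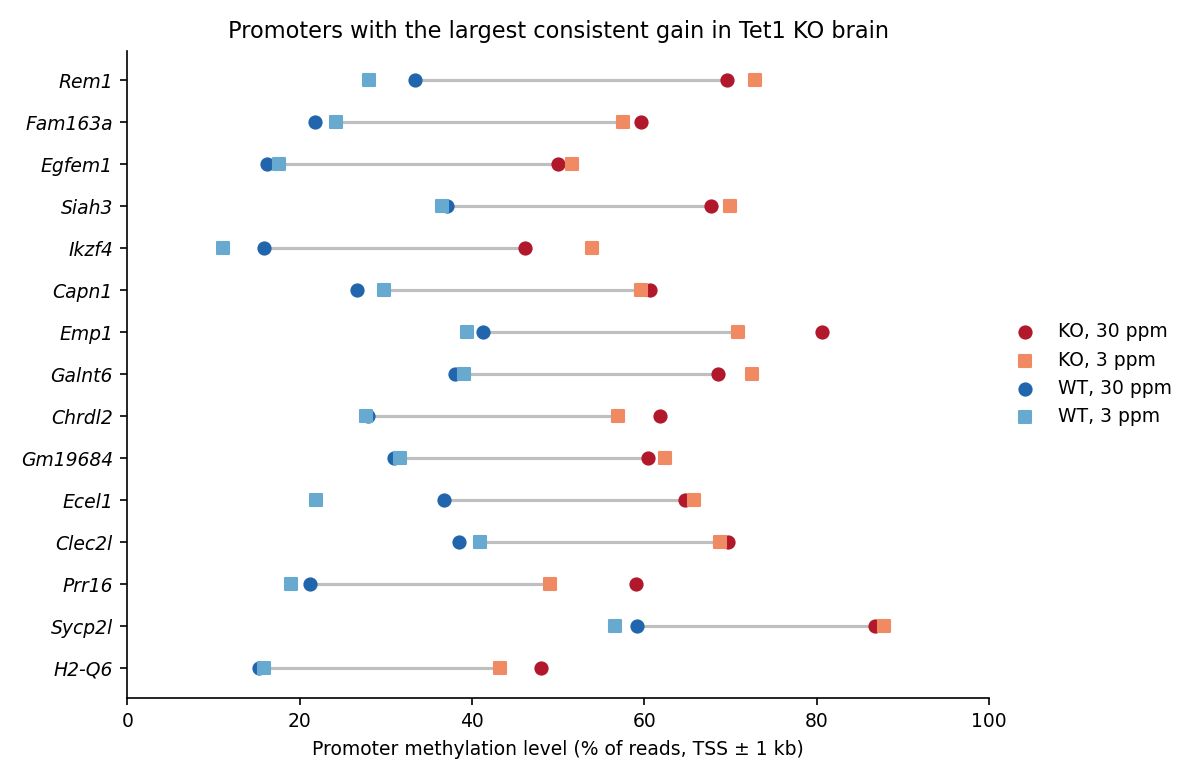
Promoter methylation level (% of reads within 1 kb of the start site) in each library for the 15 promoters named for the largest consistent gain, with KO in red and orange and WT in blue, circles for 30 ppm and squares for 3 ppm FA. The grey line spans the smallest KO minus WT difference, from 36.3 points at Rem1 to 27.4 points at H2-Q6. The genotypes do not overlap at any of the 15, which were picked for their gain.

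Among the 22 gene lists, the 3 with the highest shares of gains by the 10-point rule were lists of genes that mature neurons use. By limma's higher calls the order differed, with the endothelial (33.3%) and Wnt (31.6%) lists above the glutamate and GABA receptor list (30%). Of 88 tested potassium channel genes, 22 gained (25%) and none lost, beside 7.45% of all promoters, and limma called 31 higher (35.2%, beside 12.2% of all promoters) and 0 lower. Their median difference was 6.98 points against 3.00 for all promoters. Kcnj4, an inwardly rectifying channel, had 51.0% and 49.4% in KO and 6.90% and 8% in WT, on only 5 of 147 CpGs with 49 to 83 reads. Kcna5, a voltage-gated channel, gained 29.6 points but held 1 CpG at no more than 5% in both WT libraries and at least 60% in both KO libraries, as a sequence variant would give. Kcnab1, an auxiliary subunit, had 57.9% and 57.4% in KO and 30.0% in both WT libraries. In these promoters, picked for their effect, the diets of a genotype lay close together and the genotypes far apart.

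Of 56 genes of the presynaptic active zone and synaptic vesicles, 13 gained (23.2%), beside 7.45% of all promoters, with a median difference of 7.36 points. limma called 19 of them higher (33.9%, beside 12.2% of all promoters) and 1 lower. Cplx2, whose complexin regulates vesicle fusion, was at 90.5% and 61.4% in KO and at 19.2% and 4.76% in WT, on only 3 CpGs and 21 reads in KO 30 ppm. Syt2, a calcium sensor of release, was 23.6 points higher. Among 40 glutamate and GABA receptor genes, 9 gained (22.5%) and limma called 12 higher (30%) and 0 lower. The list was led by Grin2c, an NMDA receptor subunit (57.9% and 54.1% in KO, 33.0% and 31.9% in WT), Gabrb2, a GABA-A receptor subunit (18.8 points) and Grm4, a metabotropic glutamate receptor (15 points). The median WT levels of these 3 lists were between 26.9% and 30.9%, within the range where gains were most frequent among all promoters, and the share of that in the counts was not tested.

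Lists of signalling, transport and muscle genes also lay above all promoters, of which 7.45% gained and limma called 12.2% higher. In the Wnt list 8 of 57 promoters gained (14.0%, median difference 6.47 points) and limma called 18 higher (31.6%) and 0 lower. Wnt2, a ligand, had 32.1% and 36.3% in KO and 7.73% and 8.19% in WT (log2 change 2.53, SE 0.27, limma adjusted p = 0.00112). Dkk3, of the Dickkopf family, gained 20.9 points, and Rnf43, a ubiquitin ligase that removes Frizzled receptors, 20.3 points. Of 70 axon guidance genes, 9 gained (12.9%) and limma called 18 higher (25.7%). Among the gains were the ephrin receptor gene Epha8 (65.6% and 65.8% in KO, 34.8% and 41.8% in WT), Sema4a (18.9 points) and Sema4g (15.4 points). Of 359 solute carriers, 41 gained (11.4%) and limma called 73 higher (20.3%), with the nucleoside transporter Slc29a1 at 69.5% and 70.5% in KO and 42.2% and 41.5% in WT, and Slc9a3 and Slc6a17 at 26.3 and 24.4 points. Muscle and heart genes gained at 6 of 53 (11.3%), with 11 called higher (20.8%) and 1 lower by limma, led by the skeletal actin gene Acta1 (66.1% and 71.0% in KO, 35.5% and 26.7% in WT), with Atp2a1 and Mef2a at 16.8 and 15.6 points.

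Genes of folate and single-carbon metabolism gained at 6 of 45 promoters (13.3%, beside 7.45% of all promoters), with a median difference of 4.45 points against 3.00. limma called 8 higher (17.8%, beside 12.2% of all promoters) and 0 lower. Gcsh, a subunit of the glycine cleavage system, had 27.0% and 29.6% in KO and 11.2% and 11.6% in WT. Slc19a1, the reduced folate carrier, had 63.5% and 66.3% in KO and 44.8% and 48.8% in WT (limma adjusted p = 0.0169). Shmt1, the cytosolic serine hydroxymethyltransferase, had 37.3% and 37.8% in KO and 23.7% and 22.3% in WT. None of these 3 promoters passed a Wald test, which compares libraries, for a difference in KO minus WT between the diets (adjusted p of 0.932 to 0.986 across all promoters). Slc46a1, the proton-coupled folate transporter, had 49.5% and 41.7% in KO and 32.6% and 40.5% in WT. The KO minus WT difference was thus 16.9 points with the 30 ppm diet and 1.16 points with the 3 ppm diet, for which Fisher's exact test gave adjusted p-values of 4.74e-04 and 0.890. These differences were not separated by the Wald test (adjusted p = 0.0968). Over both diets it did not pass limma (adjusted p = 0.232).

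Genes that write, read or remove DNA methylation stood near all promoters, with 1 of 24 gained (4.17% beside 7.45%) and 3 called higher and 0 lower by limma (12.5% higher beside 12.2%). The gain was Smug1, a DNA glycosylase of base excision repair (63.6% and 62.3% in KO, 38.6% and 39.6% in WT). Dnmt3b, a de novo methyltransferase, had 74.6% and 79.6% in KO and 66% and 57.9% in WT (limma adjusted p = 0.0373). Uhrf2 was 8.83 points higher with a limma adjusted p of 0.0605. Tet2 had 18.5% and 12.3% in KO and 5.37% and 6.15% in WT (limma adjusted p = 0.0178). The genotypes overlapped at Tet1 (91.5% and 92.6% in KO, 91.2% and 94.7% in WT) and at Dnmt3a, and Tet3 and Dnmt1 differed by 1.96 and 3.88 points with limma adjusted p of 0.386 and 0.176. For Tet1 the outermost annotated start site lies in methylated DNA of low CpG density. The covered CpGs of Dnmt3a (6 of 104), Tet3 and Dnmt1 were also highly methylated in every library. Their levels ran from 80% (Dnmt3a, WT 30 ppm) to 92.9% (Dnmt1, KO 3 ppm). Other start sites of these genes were not measured here.

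Neural tube closure genes gained about as often as all promoters, at 4 of 56 (7.14%), with a median difference of 3.33 points. Ptch1, the Hedgehog receptor gene whose CpGs are shared with Gm30655, had 34.6% and 34% in KO and 16.7% and 13.2% in WT. Vangl2, of planar cell polarity, had 48.5% and 49.1% in KO and 31.6% and 31.1% in WT. Dvl3, which relays Wnt signals and shares its CpGs with Gm16618, had 23.4% and 18.4% in KO and 6.78% and 4.13% in WT. All 3 were called by limma, among 6 of the list called higher (10.7%, beside 12.2% of all promoters) and 1 lower.

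Among transcription factors of brain patterning and neurogenesis the share of gains was below the 7.45% of all promoters in each of 4 lists, and the median level was under 10% in every library. By limma's higher calls, of which all promoters held 12.2%, the forkhead list (6 of 39, 15.4%) and the progenitor and proneural list (5 of 36, 13.9%) stood slightly above, and the homeobox list (6 of 73, 8.22%) and the Hox list (2 of 38, 5.26%) below. Of 73 homeobox and patterning genes 2 gained (2.74%), with median levels of 2.25% and 2.18% in KO and 2.11% and 1.87% in WT. They were Gbx1 (52.5% and 58.1% in KO, 38.0% and 20.8% in WT, on 4 CpGs) and Nkx6-2 (23.3% and 24.2% against 11.1% and 8.60%), and Dlx5 was 7.81 points higher. Among 38 Hox genes Hoxd1, whose CpGs are shared with Haglr, alone gained, from 3.33% and 8.42% in WT to 25.9% and 21.5% in KO, while Hoxd12 was 6.00 points higher (limma adjusted p = 0.0116) and Hoxb1 4.04 points (limma adjusted p = 0.254). Of 39 forkhead genes Foxn4 and Foxq1 gained (5.13%), with Foxn4 at 24.0% and 26.4% in KO and 8.97% and 8% in WT, and Foxi2 was 8.36 points higher. Of 36 progenitor and proneural genes 2 gained (5.56%). Hes5, a Notch target that holds progenitors, had 48.0% and 47.5% in KO and 32.3% and 26.1% in WT. Neurog1, a proneural factor, rose from 1.67% and 1.35% in WT to 15.5% and 18.3% in KO on 8 CpGs (log2 change 2.83, SE 0.35, limma adjusted p = 0.00163). Neurod6 was 8.73 points higher, with a limma adjusted p of 0.0807.

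Olfactory receptor genes held few gains beside all promoters, of which 7.45% gained and limma called 12.2% higher. The germline and maternally imprinted lists are short. The olfactory receptor and germline lists had median levels of 81.9 to 84.2% in every library, and the imprinted list 58.2 to 62.0%. Among all promoters with a mean level above 75%, 0.824% gained and limma called 2.57% higher. The share of the level in the counts of these lists was not tested. Of 1002 olfactory receptor promoters 1 gained (0.0998%), with a median difference of -0.347 points. For these limma called 9 higher and 9 lower (0.898% each), beside 12.2% higher and 0.165% lower over all promoters. The gain was Olfr222, at 80.4% and 81.9% in KO and 67.5% and 62.5% in WT, and Olfr148 was 9.79 points higher. Of 29 germline genes 1 gained (3.45%), Tdrd6 (80.9% and 77.9% in KO, 56.1% and 57.2% in WT), while Tdrkh and Tdrd1 were separated by under 5 points and did not pass limma (adjusted p of 0.214 and 0.320). The imprinted list was also measured at the outermost start sites, and whether these hold the imprinted regions was not checked. None of its 17 promoters gained, while limma called 2 higher (11.8%). The median difference was 3.91 points against 3.00 over all promoters. Those 2 were Grb10 (33.5% and 31.0% in KO, 16.0% and 22.0% in WT) and Impact, and Inpp5f was 9.60 points higher with a limma adjusted p of 0.0515.

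**Figure D5:**
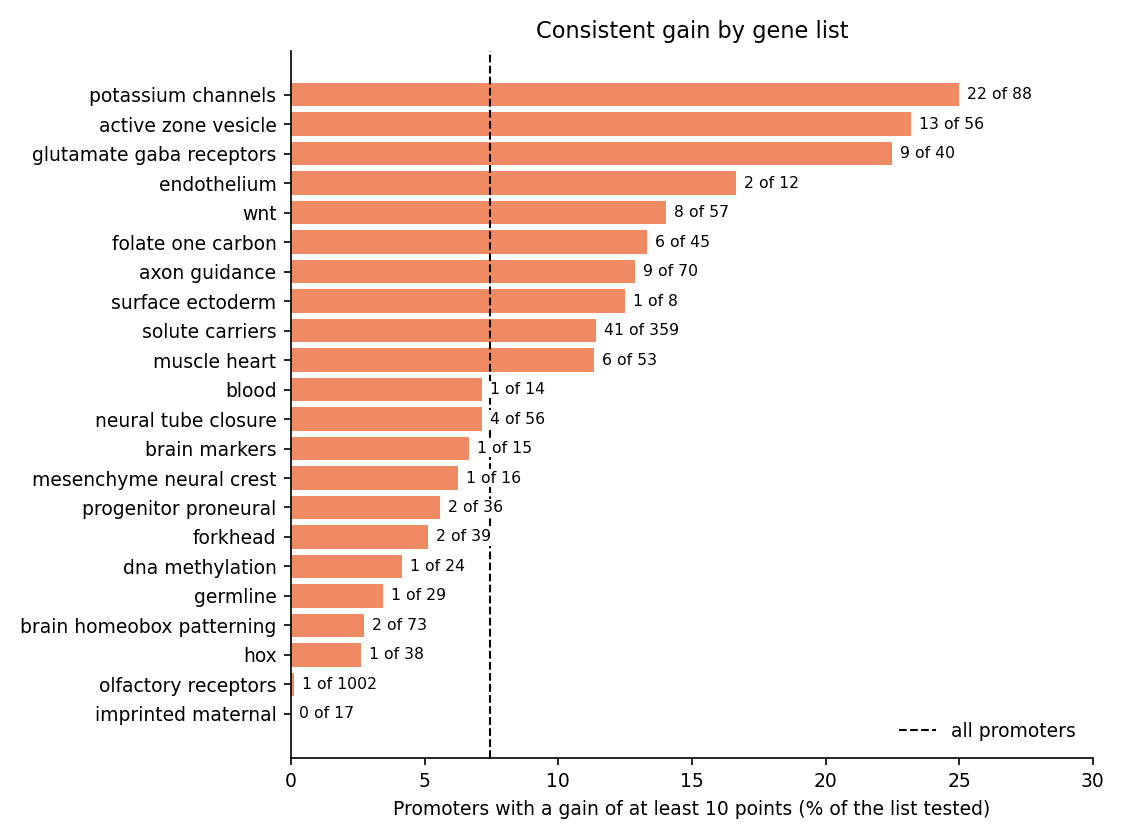
Percent of each gene list's tested promoters that were at least 10 points higher in both KO libraries than in both WT libraries, with the counts beside the bars; the dashed line is the 7.45% of all promoters. Potassium channels, the active zone and vesicle list, and glutamate and GABA receptors lie at 22.5 to 25%, and olfactory receptors at 0.0998%.

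Markers of brain and of other cells that dissected brain can hold were read as a check on tissue composition, which bulk methylation cannot separate from a change within cells. Over all promoters 7.45% gained and limma called 12.2% higher. Of 15 brain markers 1 gained (6.67%) and limma called 1 higher (6.67%). The gain was Tubb3 (53.4% and 54.5% in KO, 20.2% and 37.0% in WT), and Elavl4 and Neurod1 did not pass limma (adjusted p of 0.153 and 0.165). Of 14 blood markers 1 gained (7.14%) and limma called 1 higher (7.14%). It also called 1 lower, Hbb-bt (limma adjusted p = 0.0321), beside 0.165% of all promoters called lower. The gain was Lyl1 at 16.1 points, Hbb-bt lost 10.4 points on 3 CpGs, and Klf1 did not pass limma (adjusted p = 0.0638). Of 12 endothelial markers 2 gained (16.7%), and limma called 4 higher (33.3%) and 0 lower. The gains were Erg (72.5% and 56.8% in KO, 24.7% and 36.6% in WT) and Eng (11.1 points), while Sox18 was 6.98 points higher. Of 16 mesenchyme and neural crest markers 1 gained (6.25%), Pdgfrb at 11.3 points (limma adjusted p = 0.0524), and limma called 0 in either direction. Sox10 stood at 73.7% and 76.7% in KO and 63.2% and 68.7% in WT. At Twist1 the KO libraries were at 1.59% and 0.952% and the WT libraries at 3.17% and 6.06%. Of 8 surface ectoderm markers 1 gained (12.5%), Krt8 at 13.6 points, limma called 1 higher (12.5%), and Krt18 and Krt5 did not pass limma (adjusted p of 0.247 and 0.380). The median level of the endothelial list was 77.4% and 70.4% in KO and 48.7% and 50.9% in WT. That of the blood list was 77.3% and 72.6% in KO and 71.5% and 76.8% in WT. Taken promoter by promoter, the median differences of these lists were 4.34 and 1.38 points, against 3.00 over all promoters. The part of cell composition in the promoter gains was not tested.

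The 8 losses were mostly thinly measured. They had a median of 4 CpGs and of 41.5 reads in the shallowest library, against 19 CpGs and 191.5 reads for gains. The largest, the olfactory receptor gene Olfr2, had 67.9% and 67.7% in KO and 90.7% and 89.4% in WT on 4 CpGs (limma adjusted p = 0.00267). Fmnl3, which encodes a formin and is named after its values were seen, was measured on 16 CpGs with 151 to 363 reads, at 45.7% and 47.1% in KO and 62.1% and 60.6% in WT (limma adjusted p = 0.0380). It was also the 1 promoter that Fisher's exact test called lower in both diets. Of 48 promoters that limma called lower (0.165% of the 29096 tested), 16 were on chromosome 7, which held 2450 of those tested. Of these 16, 8 lay between 100 and 110 Mb, among 321 tested there. The bounds of that stretch were set by hand, so its counts describe it and test nothing. That stretch held 3 of the 8 losses, including Olfr2 and Hbb-bt. Under the limits on CpGs and depth of the naming rule, 1 of the 8 remained, Gm8251 (53.8% and 52.4% in KO, 67.1% and 64.1% in WT). It did not pass limma (adjusted p = 0.0734). The next promoters in that direction, Vmn2r16, Zfp931, Gm14496 and Arl2, which shares CpGs with Batf2, had consistent effects of -9.64 to -8.21 points and so were not among the 8. Of these Zfp931 passed limma (27.7% and 24.3% in KO, 43.8% and 37.1% in WT, adjusted p = 0.0303), and the adjusted p of the others were 0.0568 to 0.0819.

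The cross split showed what a grouping without a shared genotype or diet gave. Its 33 promoters had a median of 67 reads in the shallowest library. Lrtm1 (50.0% in KO 30 ppm and 51.8% in WT 3 ppm, against 36.1% in WT 30 ppm and 34.8% in KO 3 ppm) and the innate immune receptor gene Naip2 led in the higher direction at 13.9 and 13.6 points. Acot4, an acyl-CoA thioesterase gene that shares CpGs with Gm49366, and Psg21 led in the lower direction under the naming rule. Their effects were -10.9 and -9.63 points, so Psg21 was not among the 33. Acot4 was measured on 43 CpGs, at 52.1% in KO 30 ppm and 57.7% in WT 3 ppm, against 68.6% in WT 30 ppm and 69.4% in KO 3 ppm.

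CpGs at which a sequence variant could stand in for methylation were counted. In all, 886 CpGs had at least 60% in both libraries of one genotype and at most 5% in both of the other, and all 886 were high in KO. Only CpGs on a reference CG were listed, so where KO carries the reference sequence a variant can only lower WT. The shared direction is therefore a description and tests nothing. Of the 886, 626 (70.7%) lay on chromosome 10 between 40 and 46 Mb, a stretch that does not hold Tet1. That block held 8 gains among 85 tested promoters (9.41%, beside 7.45% of all promoters). Such a CpG lay in 66 of all 29096 promoters and in 48 of the 2168 gains. Being high in KO, such a CpG adds to a gain by itself. With those CpGs removed, 2162 promoters gained.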

How the data were processed

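Genomic DNA of 4 single E11.5 brains was bisulfite converted and sequenced. Per the labels and methods, the authors trimmed reads with Trim Galore 0.6.10, aligned them to mm10 (GRCm38.p6) with Bismark 0.23.1, removed duplicates and merged the strands. The deposited files list, per CpG, the methylated fraction and the read count. The authors' lists of differentially methylated regions, which hold their own comparisons, were not used. Fraction times reads gave whole methylated counts (within 4.37e-11), and every one of 16408036 CpGs checked lay on a reference CG.

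Reads were summed over CpGs covered 5 times or more in each library, within 1 kb of the outermost start site of GENCODE M21 protein-coding and long non-coding genes on autosomes, given at least 3 CpGs. limma 3.58.1 tested log2((methylated + 1)/(unmethylated + 1)) with diet in the model and a trended prior, adjusted over all promoters. edgeR 4.0.16 was the alternative. Fisher's exact test (two-sided) and the Wald test between diets used scipy on the reads, which are not independent molecules of different cells, so those p-values cover counting error only. In the limma fit with genotype and diet, the spread left over is the cross-split contrast, drawn toward a prior shared over promoters. The limma p-values for genotype rest on that spread, with 1 embryo per genotype and diet. The limma fit, the gain rule and Fisher's exact test were tested on simulated data, and edgeR and the Wald test were not.

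The comparison and the 22 gene lists, all of whose members matched the annotation, were chosen with earlier results of these data known. Named promoters were, among protein-coding ones with at least 5 CpGs, a mean of 10 reads per CpG in each library and no CpG of at least 60% in both libraries of one genotype and at most 5% in the other, the 15 largest gains, the 5 largest losses and the 2 largest cross-split effects in each direction, then, without these limits, the 3 members of each list with the largest effect, and Tet1, Tet2, Tet3, Dnmt1, Dnmt3a, Dnmt3b and Slc46a1. 1 promoter that this rule names is not reported here. Alternatives covered the read minimum, promoter width, CpG minimum, thinning, centring, the pseudocount, the model and leaving out each library.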

Additional observations from a re-analysis of the deposited data

Results flagged for a closer look

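At Erg the KO minus WT difference was not the same at both diets, by a Wald test on reads, adjusted over all promoters. KO was 47.9 points above WT at 30 ppm and 20.3 points above it at 3 ppm, a difference of 27.6 points (adjusted p = 0.0166). At Acot4 KO was 16.5 points below WT at 30 ppm (-16.5) and 11.6 points above it at 3 ppm, so the difference between the diets was -28.2 points. Acot4 was named for its cross split effect, which is this same contrast, so its value is a description with no test. The Wald test covers the counting error of reads in single libraries and not the spread between embryos. Each diet holds 1 embryo per genotype, so diet and embryo cannot be told apart here. Over all promoters 391 passed this test, 237 with the larger KO minus WT difference at 30 ppm and 154 with the larger at 3 ppm, and 14 of them were among the 2168 gains.

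The X chromosome was outside the comparison of autosomes. Of 719 X promoters tested by the same rule, 51 gained (7.09%) and 1 lost, against 6 and 2 for the cross split in its higher and lower directions. All 4 libraries had reads on the Y chromosome, with means of 7.15 to 11.6 per listed CpG.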

How the results depend on the processing

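Gains outnumbered losses under every alternative run. With all 4 libraries, the count of gains stayed within 1.5 times of 2168 except with promoters of 2.5 kb on each side (1068) and with each library centred on its median promoter difference (1236). Losses were 14 with at least 10 reads per CpG, 20 with promoters of 500 bp on each side, 1 with 2.5 kb, 3 with at least 5 CpGs, 35 with centring and 4 with the mean of the CpG levels. The cross split gave 26 higher with at least 10 reads, 25 higher and 27 lower with 500 bp, 4 and 0 with 2.5 kb, 9 and 11 with at least 5 CpGs, 25 and 26 after thinning, and 7 and 5 with the mean of the CpG levels. limma's calls, higher and lower in KO, were 1937 and 15 with at least 10 reads, 1626 and 20 with 500 bp, 5519 and 168 with 2.5 kb, 943 and 140 with centring, 1745 and 27 without a trended prior, and 30 lower on the fraction scale; edgeR called 5524 higher. For the cross split limma called 34 with 500 bp and 39 with 2.5 kb. Fisher's exact test called 1303 higher and 2 lower with at least 10 reads, 987 and 0 with 500 bp, 0 lower with 2.5 kb and 3 lower with no read minimum. The median difference was 2.53 points with no read minimum and 2.04 with 500 bp. The causes of these shifts were not tested.

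Leaving out a library, gains were 3303 to 3602, above 1.5 times 2168 in each case, and losses 63 to 101, with fewer pairs to satisfy. limma, with genotype alone and the lone embryo assumed to vary like the others, called 1313 to 3002 higher and 17 to 75 lower, lowest without KO 30 ppm. The median difference was 2.73 to 3.33 points. Without the diet term that pairs embryos by diet, limma called 3607 higher and 45 lower. Of 1115 alternative values for 90 named promoters, 1093 kept their direction, 21 overlapped and 1 reversed, Twist1 at 3.27 points with 2.5 kb. Leaving out a library leaves fewer pairs, so it cannot shrink or reverse a consistent effect. For the 15 largest gains, the CpG minimum and the removal of CpGs that look like sequence variants repeat limits of their selection. Those values could not fall below 10 points. The 15 largest gains stayed at 10 points or more in 187 of 190 values. The exceptions were Ikzf4 with 2.5 kb (6.50 points), Emp1 with 500 bp (8.94) and Sycp2l with at least 10 reads (7.58). In high-density promoters a median of 25% of reference CpGs had enough reads in all libraries, and 1 embryo per genotype and diet limits any statement on embryos.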
